A study of Mus musculus with 2 samples.

Results

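The genes described here are 34 interferon-stimulated genes, listed by symbol and divided into 26 type I-leaning genes and 8 IFN-γ-leaning genes (Irf1, Gbp2, Gbp3, Gbp4, Gbp7, Igtp, Irgm1 and Irgm2). Of these 34 genes, 33 had a probe set under their symbol, 1 each, among 19505 named genes, and Ifi44 was not analysed here. RNA had been taken from ILC3s (group 3 innate lymphoid cells), sorted as lineage-negative, CD90-high, CD45-low cells, of circKcnt2 knockout mice and of WT littermates, with 1 array for each genotype. Both groups of mice had been given dextran sodium sulfate (DSS), which damages the lining of the gut and brings on colitis, and per the study's methods all strains were on a C57BL/6 background and the knockout had been made by CRISPR in zygotes. Mice given DSS were young adults per the study's methods, and the labels do not give how many stood behind an array. circKcnt2 is a circular RNA spliced from the Kcnt2 transcript. Kcnt2 itself was at 1.45 on both arrays, below background, and its linear transcript was not the target of the deletion, so that the genotype labels were not checked here.

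Interferons signal through receptors that activate JAK kinases and STAT factors. Type I interferons act mainly through a complex that includes STAT2 and IRF9 and binds the interferon-stimulated response element (ISRE). IFN-γ acts largely through the gamma-activated site (GAS) and induces factors such as IRF1. The induced genes restrict viruses and intracellular pathogens, and in the gut they are part of the response of immune cells and epithelium to damage and microbes.

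Promoters of the listed genes were searched for these 2 elements. The genes were listed because interferons induce them, so a high share with these elements partly follows from the choice of genes. RefSeq promoters of build GRCm38.p6, running from 250 bases before the start to 50 bases after it, were found for 25 of the 34 genes. The ISRE core GAAANNGAAA, searched on both strands, was in 16 of 25 promoters (64.0%), against 3.99% of all 27025 genes with a promoter. The GAS core TTCNNNGAA, which reads the same on both strands, was in 7 of 25 (28.0%), against 9.55% of all genes. Of the 7 IFN-γ-leaning genes with a promoter, 6 held the ISRE core and 4 the GAS core, and of the 18 type I-leaning genes 10 and 3 did. Both elements were found in 5 promoters and neither in 7, and they overlapped in 1 window. The sites below, with motif bases in capitals and read in the direction of the gene, are shown because their genes carry the comparisons that follow.
Isg15: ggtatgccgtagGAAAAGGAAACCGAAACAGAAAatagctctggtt
Ifit1: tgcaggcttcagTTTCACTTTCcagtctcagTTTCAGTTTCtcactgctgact
Oas1a: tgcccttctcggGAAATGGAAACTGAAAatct
Bst2: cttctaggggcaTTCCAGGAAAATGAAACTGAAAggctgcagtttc
Irf1: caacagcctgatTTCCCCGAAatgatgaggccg
Gbp2: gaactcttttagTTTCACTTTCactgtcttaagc
Igtp: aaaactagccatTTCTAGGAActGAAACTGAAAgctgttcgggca
Irgm2: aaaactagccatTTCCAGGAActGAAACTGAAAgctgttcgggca

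The Isg15 window (chr4:156200863-156200908, minus strand) held 3 overlapping ISRE cores, the first beginning 78 bases before the start. The Ifit1 window (chr19:34640773-34640825, plus strand) held 2 cores on the opposite strand, and the Oas1a window (chr5:120907526-120907557, minus strand) held 2 overlapping cores. The Bst2 window (chr8:71537575-71537620, minus strand) held a GAS core that ran into 2 ISRE cores. Irf1 (chr11:53769912-53769944, plus strand) had a GAS core alone and Gbp2 (chr3:142620592-142620625, plus strand) an ISRE core alone. The windows of Igtp (chr11:58199499-58199543) and Irgm2 (chr11:58214890-58214934), both on the plus strand, held both elements in the same order and were identical at 44 of 45 bases. Each match is a description of the sequence and not a measured site of binding.

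The first question was whether the listed genes were measurable in these cells. Levels are log2 values that the authors computed per probe set by RMA, a procedure that removes background, brings arrays to similar distributions and summarises probes. The deposited medians over all probe sets were 3.22 on the knockout array and 3.27 on the WT array. Probes differ between genes, so no gene's level is set against another's. Background was set at 2.73, the 95th percentile of olfactory and vomeronasal receptor genes, and genes that met it on either array were kept. Of the 33 measured genes 28 were kept (84.8%), against 64.1% of all named genes, and 26 were above background on both arrays. All 8 IFN-γ-leaning genes were above background on both arrays, as were 18 of 25 type I-leaning genes. Mx1, Oas2, Oas3, Oasl1 and Cmpk2 were below background on both, Rsad2 was above it on the WT array alone and Rtp4 on the knockout array alone. Many type I-leaning genes lay only slightly above background. At a stricter level of 3.62, the 99th percentile of the receptor genes, 19 of 33 genes were above background on both arrays, 6 on 1 array and 8 on neither.

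**Figure D1:**
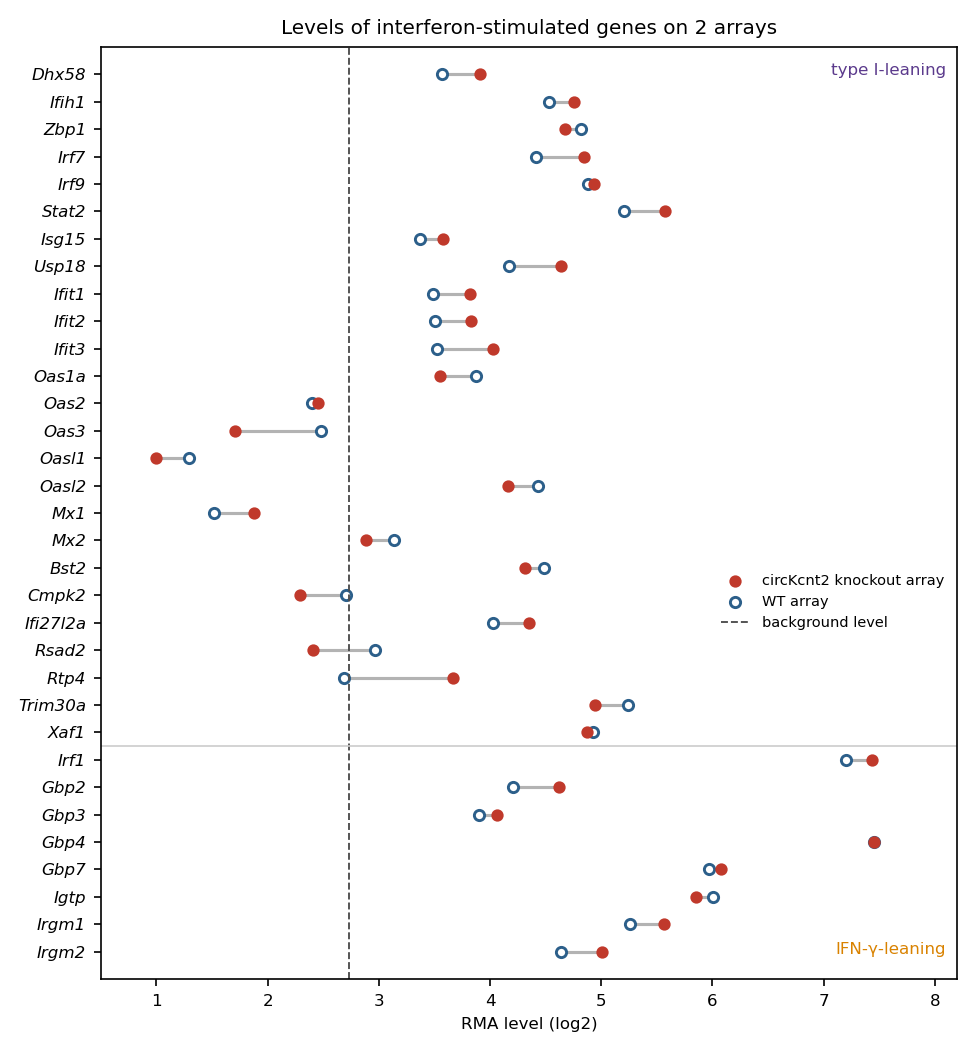
RMA level (log2, horizontal axis) of the 33 measured genes, with a filled point for the circKcnt2 knockout array, an open point for the WT array and a dashed line at the background level of 2.73. The 8 IFN-γ-leaning genes, at the bottom, lie above background on both arrays, whereas 5 type I-leaning genes lie below it on both.

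Next, the knockout array was compared with the WT array. Differences are circKcnt2 knockout minus WT on the log2 scale, and since there was 1 array for each genotype, no difference has a replicate check and no test was possible. Of the 28 genes above background, 19 were higher on the knockout array and 9 lower, or 67.9% higher, against 56.4% of all named genes above background, and the signs of 3 of them (Irf9, Gbp4 and Gbp7) depended on scaling. The median difference was 0.22, against 0.06 over all 12504 genes above background. The differences were small. Rtp4 alone was at least 1.5-fold higher (1 of 28, or 3.57%, against 7.66% of all genes), and none of the 28 was at least 1.5-fold lower, against 5.21% of all genes. At a lower threshold, a log2 difference of 0.322, 10 genes were higher (35.7%, against 22.9% of all genes) and Rsad2 alone was lower (3.57%, against 16.1%), with Ifit2 (0.321) and Oas1a (-0.319) just short of it. None passed 2-fold in either direction, whereas 1.11% of all genes were 2-fold higher and 0.512% 2-fold lower.

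The split of all genes depended on centring. At 1.5-fold, 958 of all genes were higher and 652 lower (59.5% higher), and after the median difference was subtracted 722 were higher and 870 lower (45.4% higher). The listed genes then had 1 gene higher and 1 lower. Differences of all genes also depended on level. Among genes with a mean level no lower than that of the median gene, the median difference was 0.10, against 0.06 here. A loess correction, used below for the listed genes, removes a trend of differences with level. For genes of like level, taken in 20 bins of mean level, the middle 95% of differences began between -1.0 and -0.28 and ended between 0.66 and 0.95. Of the 28 genes, 27 lay inside the range of their bin, with Rtp4 as the exception.

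**Figure D2:**
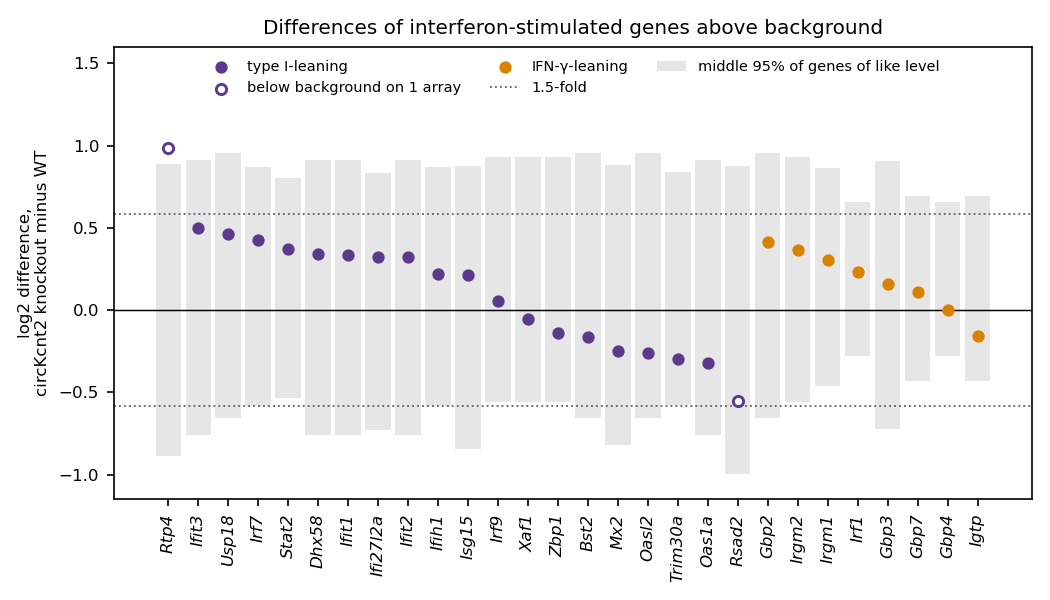
Log2 difference (circKcnt2 knockout minus WT, vertical axis) of the 28 genes above background, with a grey bar for the middle 95% of genes of like level, dotted lines at 1.5-fold and open points for genes below background on 1 array. Apart from Rtp4 (0.98), all points lie inside their grey bars and between the dotted lines.

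Among the type I-leaning genes, 12 of 20 were higher (60.0%, against 56.4% of all genes) and 8 lower. The median difference was 0.22 and the range ran from -0.55 to 0.98. The sensors of nucleic acids differed little. Ifih1, which encodes the double-stranded RNA sensor MDA5, was at 4.75 on the knockout array and 4.54 on the WT array. Dhx58, a helicase of the same family also called LGP2, was at 3.91 on the knockout array and 3.57 on the WT array, a difference of 0.34. Zbp1, a sensor of Z-form nucleic acids that can start necroptosis, was slightly lower, at 4.68 on the knockout array and 4.82 on the WT array.

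The listed transcription factors, with Irf1 included, were higher on the knockout array, 4 of 4 (100%, against 56.4% of all genes). The sign of Irf9 depended on scaling, and all 4 lay inside the range of genes of like level. Of 5 other IRF genes, given further on, 4 were lower. Irf7, which drives expression of interferon-α genes, was at 4.84 on the knockout array and 4.42 on the WT array, or 1.34-fold higher. Stat2, the signal transducer particular to type I and type III interferons, was at 5.58 on the knockout array and 5.21 on the WT array, or 1.29-fold higher. Irf9, the DNA-binding subunit of the complex with STAT2, was almost level, at 4.94 on the knockout array and 4.88 on the WT array. The difference of 0.05 turned negative under 3 other scalings (-0.04 after a loess correction, -0.05 after quantile normalization and -0.01 after subtraction of the median difference).

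The genes of ISG15 conjugation were both higher. Isg15 encodes a ubiquitin-like protein that is attached to other proteins, and was at 3.58 on the knockout array and 3.37 on the WT array. Usp18 encodes the protease that removes ISG15 and also dampens signalling at the type I receptor, and was at 4.64 on the knockout array and 4.17 on the WT array, or 1.38-fold higher.

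The 3 listed IFIT genes and the 2 listed OAS genes above background differed in opposite directions. Each differed by less than 1.5-fold and lay within the range of genes of like level. The difference between the families was not tested. The listed IFIT genes, neighbours on chromosome 19 whose products bind viral RNA, were all higher on the knockout array. On the WT array all 3 lay below the stricter background level, as Oas1a did on the knockout array. The related Ifit1bl1, outside the list, went the other way, at 4.25 on the knockout array and 4.54 on the WT array. Ifit3 was at 4.03 on the knockout array and 3.53 on the WT array, or 1.41-fold higher. Ifit1 was at 3.82 and Ifit2 at 3.83 on the knockout array, against 3.49 and 3.51 on the WT array, with differences of 0.33 and 0.32. The OAS genes encode synthetases, or relatives of them, of the oligoadenylates that activate RNase L. Both listed members above background were lower. Outside the list, Oas1b (difference -0.30) and Oas1c (-0.32) were lower too. Oas1a was at 3.55 on the knockout array and 3.87 on the WT array, and Oasl2 was at 4.17 on the knockout array and 4.43 on the WT array. The 3 OAS genes below background were Oas2 (2.45 on the knockout array, 2.40 on the WT array), Oas3 (1.71 and 2.48 in the same order) and Oasl1 (1.00 and 1.30), and no direction is given for them. The Ifit1 and Oas1a promoters both held ISRE cores. A GAS core was also found in the promoters of Oas1a, beginning 98 bases before the start, and of Ifit2, but not in that of Ifit1. Probes of IFIT and OAS genes may also bind transcripts of close relatives, such as Oas1b and Oas1g, so that members of a family are not independent measurements.

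Of the Mx genes, dynamin-like GTPases that block viral replication, Mx2 was at 2.89 on the knockout array and 3.13 on the WT array. Mx1, which is defective in most laboratory strains, was below background, at 1.87 on the knockout array and 1.52 on the WT array.

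The remaining type I-leaning genes held the largest differences in both directions, each next to background. Rtp4, which encodes a receptor transporter protein with antiviral activity, was at 3.67 on the knockout array and 2.68, just below background, on the WT array. Its measured difference was 0.98, and set against the background level it was at least 1.92-fold higher. Against the stricter level of 3.62 that bound was 1.03-fold. Rsad2, which encodes the antiviral radical SAM enzyme viperin, was at 2.41, below background, on the knockout array and 2.96 on the WT array, and was thus at least 1.18-fold lower, whereas both values lay below the stricter level. Cmpk2, a mitochondrial nucleotide kinase gene that neighbours Rsad2 on chromosome 12, was below background on both arrays (2.29 on the knockout array and 2.71 on the WT array). With the background level required on both arrays, neither Rtp4 nor Rsad2 was kept.

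Other members of this group were closer together. Trim30a, a RING-domain protein gene that restrains NF-κB signalling in the mouse, was at 4.94 on the knockout array and 5.24 on the WT array. Ifi27l2a, an interferon-induced gene of the ISG12 family, was at 4.35 on the knockout array and 4.03 on the WT array. Bst2, which encodes the virus-tethering protein tetherin, was at 4.32 on the knockout array and 4.48 on the WT array. Xaf1, which encodes a partner of the apoptosis inhibitor XIAP, was at 4.87 on the knockout array and 4.93 on the WT array. Of these 4 genes only Ifi27l2a was higher on the knockout array.

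Among the IFN-γ-leaning genes, 7 of 8 were higher (87.5%, against 56.4% of all genes) and 1 lower. The signs of Gbp4 and Gbp7 depended on scaling. The share over all genes covers all levels, and brighter genes ran higher on the knockout array. After a loess correction Gbp4, Gbp7 and Igtp were lower, and the median of the 8 genes was 0.13, against -0.001 over all genes. The median difference was 0.19 and the range ran from -0.16 to 0.42. None of them reached 1.5-fold, and 2 reached a log2 difference of 0.322. Irf1, a transcription factor induced by IFN-γ, was at 7.43 on the knockout array and 7.20 on the WT array. The guanylate-binding proteins are GTPases that attack vacuoles of intracellular pathogens. Gbp2 had the largest difference of these, at 4.62 on the knockout array and 4.21 on the WT array, or 1.33-fold higher. Gbp3 was at 4.06 on the knockout array and 3.90 on the WT array, and Gbp7 was at 6.08 on the knockout array and 5.97 on the WT array. Gbp4 was at 7.45 on both arrays. Gbp4 and Gbp7 had differences of 0.00 and 0.11 as deposited and of -0.15 and -0.04 after a loess correction.

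The immunity-related GTPases measured here are of the regulatory kind that keep related effector GTPases from acting on the cell's own membranes. Irgm1 was at 5.56 on the knockout array and 5.26 on the WT array, and Irgm2 was at 5.0 on the knockout array and 4.64 on the WT array. Igtp, also known as Irgm3, was lower, at 5.85 on the knockout array and 6.01 on the WT array. Igtp and Irgm2 thus differed in opposite directions, and their promoter windows shown above were identical at all but 1 base. Whether the type I-leaning and IFN-γ-leaning genes differed from each other was not tested. Their medians were 0.22 and 0.19 here, 0.054 and 0.19 with no background floor, and 0.32 and 0.19 with the floor at the stricter level.

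Genes with and without the promoter elements were set side by side. Among listed genes above background, 10 of 15 with the ISRE core were higher (median 0.22) and 4 of 6 without it were higher (median 0.14). The shares with and without the ISRE core were thus equal. With the GAS core 4 of 7 were higher (median 0.11), and without it 10 of 14 were higher (median 0.22). Of all genes above background 56.4% were higher, with a median of 0.06. Whether the differences went with either element was not tested.

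**Figure D3:**
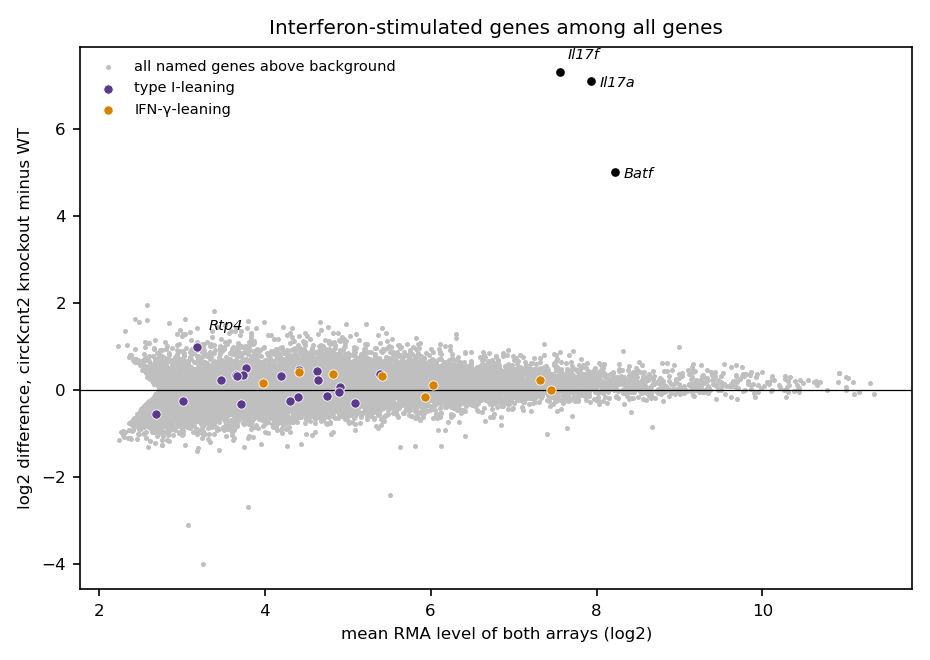
Log2 difference (circKcnt2 knockout minus WT, vertical axis) against the mean RMA level of both arrays (log2, horizontal axis) for 12504 genes above background, with the type I-leaning and IFN-γ-leaning genes coloured. The listed genes lie within the cloud of all genes, far from Il17f, Il17a and Batf.

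For scale, the 3 largest positive differences of all genes above background were those of Il17f, at 11.21 on the knockout array and 3.90 on the WT array, Il17a, at 11.48 and 4.38 in the same order, and Batf, at 10.73 and 5.71. The largest negative ones were those of Y-linked genes and Jchain, given further on.

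The rest of the interferon pathway was described from fixed lists. Of 19 measured ligand genes, 10 were above background (52.6%, against 64.1% of all genes). Of these 10, 3 were higher on the knockout array (30.0%, against 56.4% of all genes) and 7 lower, with a median of -0.17. The largest differences were those of Ifna16 (2.09 on the knockout array and 3.06 on the WT array), Ifnb1 (2.78 and 3.37), Ifnab (2.77 and 2.30) and Ifna1 (3.30 and 3.67), each below background or less than 1 log2 unit above it on both arrays. For listed genes at such low levels a loess correction raised the difference, from -0.25 to -0.09 for Mx2 and from -0.55 to -0.29 for Rsad2. The correction was not applied to the ligands, so the trend with level was not removed from their share and median. Ifng, which encodes IFN-γ and was added after its values were seen, was at 2.71 on the knockout array, just below background, and at 2.92 on the WT array.

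Of 6 receptor genes, 3 were higher and 3 lower. Ifnar2 and Ifngr1, subunits of the type I and IFN-γ receptors, were at 7.24 and 7.45 on the knockout array, against 6.83 and 7.14 on the WT array. Ifnlr1, of the type III receptor, was at 2.67 on the knockout array and 3.36 on the WT array, or at least 1.55-fold lower against the background level, with both values below the stricter level of 3.62. Il10rb, which the type III receptor shares with the IL-10 receptor, was at 5.33 on the knockout array and 5.45 on the WT array. Both subunits named for type I and IFN-γ signalling were thus above background on both arrays.

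Among 4 kinase and STAT genes, Tyk2, the kinase bound to the type I receptor, differed most, at 6.29 on the knockout array and 5.56 on the WT array (difference 0.73). Jak1 (-0.19), Jak2 (0.16) and Stat3 (-0.13) differed less. Among 5 other IRF genes, 4 were lower, with a median of -0.37. The lower ones were Irf8 (4.13 on the knockout array and 4.58 on the WT array), Irf4 (3.24 and 3.66), Irf5 (3.23 and 3.60) and Irf2 (6.72 and 6.79). Irf2 was almost level, Irf5 lay below the stricter level of 3.62 on both arrays and Irf4 below it on the knockout array. IRF8, IRF4 and IRF5 are factors of myeloid and B lineage cells as well as of interferon responses.

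Inhibitors of the pathway were divided, 5 of 9 higher (55.6%, against 56.4% of all genes) and 4 lower, with a median of 0.07. Ptpn11 (-0.36) and Socs1 (-0.34), a feedback inhibitor of JAK kinases, were lower, and Pias4 (0.33) and Pias2 (0.27) were higher. Of 37 other type I-leaning targets above background, 19 were higher (51.4%, against 56.4% of all genes) and 18 lower, with a median of 0.03. The largest differences were those of Phf11b (5.0 on the knockout array and 4.11 on the WT array), Lgals9, which encodes galectin-9 (7.67 and 7.12), Parp12 (4.18 and 3.64) and Oas1g (2.69 and 3.18). Of 7 other IFN-γ-leaning targets, 5 were higher (71.4%, against 56.4% of all genes) and 2 lower, with a median of 0.05. Gvin1, a large interferon-inducible GTPase gene, was at 4.55 on the knockout array and 5.21 on the WT array, Wars was at 5.68 and 5.23, Gbp9 at 5.92 and 5.57, and Ciita, the class II MHC transactivator, at 2.71 and 3.02. Both medians lay below that of all genes (0.06), and the difference of these lists from the 34 genes was not tested.

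**Figure D4:**
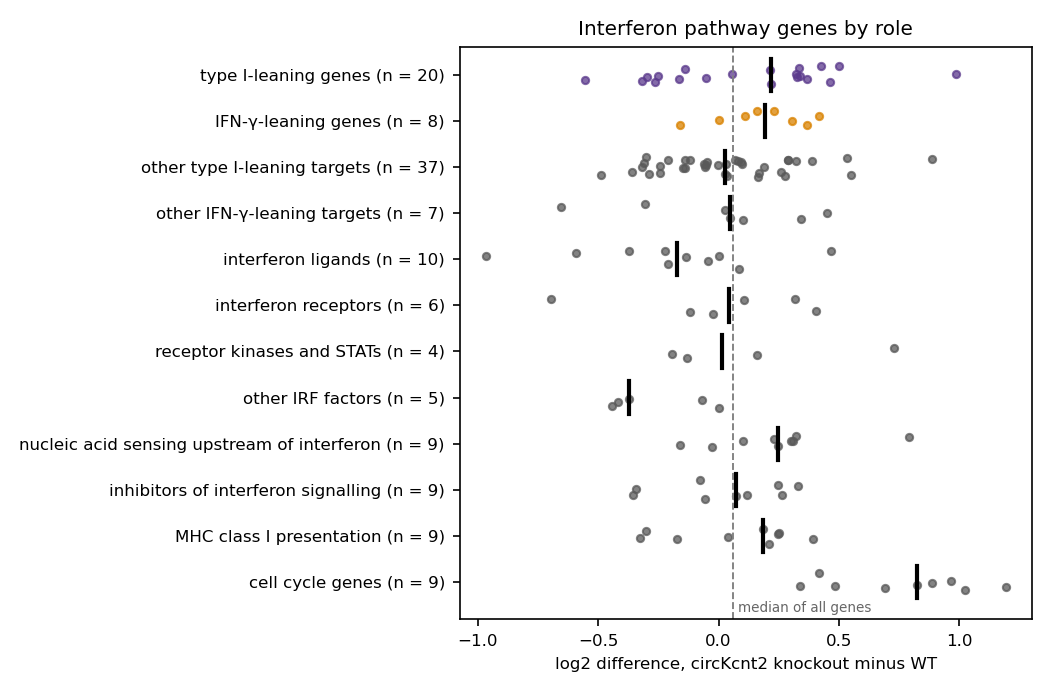
Log2 difference (circKcnt2 knockout minus WT, horizontal axis) of each gene above background in the listed classes, further interferon pathway lists and cell cycle genes, with a black bar at each median and a dashed line at the median of all genes (0.06). The medians of the type I-leaning and IFN-γ-leaning genes (0.22 and 0.19) lie right of the dashed line, that of other IRF factors lies at -0.37 and that of cell cycle genes at 0.83.

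Other differences between the arrays stood beside these values. All 9 cell cycle genes measured were higher on the knockout array (100%, against 56.4% of all genes), with a median of 0.83, against 0.06 over all genes. Of the 9, 6 were at least 1.5-fold higher (66.7%, against 7.66% of all genes). The 3 Y-linked genes ran from 1.24 to 2.45 on the knockout array and from 4.63 to 5.26 on the WT array. All 3 thus lay below background on the knockout array and above it on the WT array, so a difference in sex cannot be told apart from one in genotype. All 9 T cell markers were far above background, from 7.08 to 10.16 on the knockout array and from 6.70 to 9.98 on the WT array. Of 9 ILC3 markers, 6 were above background on each array, and Il23r, Il1r1 and Ccr6 were below it on both, so that the arrays do not settle the cell type given by the labels. Fewer cells of a type and less RNA per cell cannot be told apart in such samples.

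Markers of cells that respond to or make interferon were summed on the linear scale. Each sum is weighted to the probe sets with the brightest signal, so the gene with the widest linear gap, chosen after its values were seen, is named beside it. Of 6 plasmacytoid dendritic cell markers, 5 were above background on each array, 3 of these higher on the knockout array and 2 lower, and the defining marker Siglech was below background on both. Their sum was 507 on the knockout array and 436 on the WT array, but 218 and 212 in the same order without Ly6d (8.18 on the knockout array and 7.81 on the WT array). Of 6 NK cell markers, 3 were above background on each array, all 3 higher on the knockout array, and the defining marker Ncr1 was below background on both. Their sum was 180.0 on the knockout array and 124 on the WT array, but 50.3 and 42.0 without Gzma (7.02 on the knockout array and 6.36 on the WT array). For 6 B and plasma cell markers, with 4 above background on the knockout array and 5 on the WT array, the members moved both ways. Jchain, a plasma cell gene whose product links antibody multimers, was at 4.30 on the knockout array and 6.72 on the WT array, whereas Cd79a (4.47 and 3.90 in the same order) and Cd79b (4.87 and 3.91) were higher on the knockout array. The sum was 241 on the knockout array and 306 on the WT array, and without Jchain it was 221 and 201. For 6 monocyte and macrophage markers, 5 were above background on each array, 2 of the 6 higher and 4 lower, with sums of 69.9 on the knockout array and 72.8 on the WT array. Of 5 conventional dendritic cell markers, 1 was above background on the knockout array and 2 on the WT array. The part of these cells, of cell cycle genes and of Y-linked genes in the interferon-stimulated values was not tested.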

How the data were processed

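Gene expression was measured on 2 arrays, 1 circKcnt2 knockout and 1 WT, grouped by the genotype in the labels. The authors deposited log2 levels, 1 for each probe set, from Affymetrix Power Tools and RMA (the sources used here give no versions). Since RMA forces arrays to similar distributions, a change common to all genes would not show. The table held 29129 probe sets, of which 19572 had 1 gene symbol in the platform annotation and 9557 were unnamed. The labels name a Mouse Gene array, whereas the probe set identifiers matched the annotation of another Affymetrix mouse design, on which every gene name here rests. Repeated probe sets of a gene were averaged, though each listed gene had 1. Background was taken from 1412 olfactory and vomeronasal receptor genes. Precision is limited by the number of arrays, and no test or p-value is given. Named genes were all listed members and, of each further list, up to 4 genes above background with the largest absolute difference, and members of the cell type and cell cycle lists are given as ranges and sums, apart from a few named after their values were seen. Ifit1bl1, Oas1b and Oas1c were also named after their values were seen. The members and lists were chosen with earlier results of these data known. Promoters, coordinates and neighbours came from RefSeq (GRCm38.p6), and no build is named for the array table. Alternatives were no floor, a stricter floor (a mean level no lower than the median gene), loess (span 0.3), quantile normalization, the brightest probe set of each gene, subtraction of the median difference, addition of 32 before the logarithm, values raised to background, a log2 threshold of 0.322, a 2-fold threshold and list means in place of medians. A floor met on both arrays and a background at the 99th percentile were added after seeing the data. Calculations used Python 3.11.15, pandas 2.3.3 and statsmodels 0.14.6, and were tested on simulated data.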

Additional observations from a re-analysis of the deposited data

How the results depend on the processing

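The count of genes at least 1.5-fold higher, 1 here, was 0 with the stricter floor, with 32 added before the logarithm, with the floor met on both arrays and at 2-fold, and 10 at a log2 threshold of 0.322. The count at least 1.5-fold lower, 0 here, was 1 with no floor (Oas3), 1 with the median difference subtracted (Rsad2) and 1 at a log2 threshold of 0.322 (Rsad2). The median difference of all listed genes (0.22) was 0.082 after adding 32, which shrinks differences of low values by construction. That of type I-leaning genes (0.22) was 0.073 after adding 32, 0.054 with no floor, where 5 genes below background enter, and 0.32 with the background at the 99th percentile, where 17 genes were left. That of IFN-γ-leaning genes (0.19) lay between 0.12 and 0.19 under every alternative tried. These 3 medians stayed above 0 under all alternatives. Of 272 values of single listed genes under the alternatives, 39 moved by more than 0.1, and 3 genes (Irf9, Gbp4 and Gbp7) changed sign under some of them. No paired analysis was possible because each genotype had 1 array, and for the same reason no replicate could be left out. Signal close to background limits the type I-leaning genes most.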

Other observations

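Of 12 measured genes that sense nucleic acids upstream of interferon, 9 were above background, 7 of them higher on the knockout array (77.8%, against 56.4% of all genes) and 2 lower, with a median difference of 0.25. Ikbke, a kinase that activates interferon regulatory factors, was at 6.10 on the knockout array and 5.31 on the WT array (difference 0.79), the only one past 1.5-fold (11.1%, against 7.66% of all genes). Sting1, the adaptor for cytosolic DNA sensing, was at 5.41 on the knockout array and 5.09 on the WT array. Tlr7, an endosomal receptor for single-stranded RNA, was at 5.06 on the knockout array and 4.75 on the WT array, and Mavs, the mitochondrial adaptor of RNA sensors, was at 5.55 on the knockout array and 5.25 on the WT array.

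Genes of MHC class I presentation, which interferons induce, were all above background on both arrays. Of these, 6 of 9 were higher on the knockout array (66.7%, against 56.4% of all genes). The median was 0.18, against 0.06 over all genes, which include many of lower level. For listed genes at high levels a loess correction lowered the difference, from 0.23 to 0.08 for Irf1 and from 0.11 to -0.04 for Gbp7. The correction was not applied to this list, so the trend with level was not removed from its median. Tap2, a subunit of the peptide transporter, was at 5.96 on the knockout array and 5.56 on the WT array, and the immunoproteasome subunit gene Psmb8 was at 7.95 on the knockout array and 7.70 on the WT array. Tapbp, which encodes tapasin, was at 7.31 on the knockout array and 7.64 on the WT array, and H2-K1 was at 7.98 on the knockout array and 8.28 on the WT array. None of the 9 differed by 1.5-fold, and with 1 array for each genotype these differences have no replicate check.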
